A study of Mus musculus with 12 samples.

Results

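A set of 10 extracellular matrix genes other than collagens was followed in the livers of ob/ob mice given ethionine. The genes were Dcn, Lum, Fbn1, Fbln2, Fbln5, Igfbp7, Aebp1, Thbs2, Lgals3bp and Fn1, taken by name as matrix genes linked to fibrosis, and they make up 10 of the 56205 genes in the count table. All 10 passed the filter on low counts that left 13416 genes for testing. The 12 libraries came from 12 ob/ob mice (B6.Cg-Lep ob/J in the methods), which lack leptin and become obese, and all were kept on standard chow. The 6 mice of the Fibrotic group also received DL-ethionine, an ethyl analogue of methionine, and the 6 mice of the FLO group did not. RNA was extracted from whole liver and selected for poly(A), with 1 library per mouse. The mice were 8 to 10 weeks old at the start, per the methods of the study. The dose and duration differ between sources: 0.165% in drinking water for 2 weeks in the labels, 0.15% by injection in another label, and 0.15% in drinking water for 1 week in the methods. Fibrotic is the name the labels give the group, and no measure of scarring is part of the table.

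The matrix between liver cells is made of collagens together with glycoproteins and proteoglycans that organise the fibres, tie them to cells and hold growth factors. Stellate cells and portal fibroblasts make most of these proteins, while hepatocytes secrete the plasma form of fibronectin. Decorin (Dcn) and lumican (Lum) are small leucine-rich proteoglycans that bind collagen fibrils. Fibrillin-1 (Fbn1) builds microfibrils, on which fibulin-2 (Fbln2) and fibulin-5 (Fbln5) act in elastic fibre assembly. Aebp1 encodes a collagen-binding protein also known as aortic carboxypeptidase-like protein, Thbs2 the matricellular protein thrombospondin-2, and Igfbp7 a secreted protein of vessels and stroma that binds insulin-like growth factors weakly. Lgals3bp encodes a secreted scavenger receptor domain glycoprotein that binds galectin-3, and it is also known as an interferon-inducible gene of macrophages and epithelia.

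Promoter windows are shown for the 2 members that were called different between groups, Lgals3bp and Fbln2, and for the pair with the highest correlation within the Fibrotic group, Fbn1 and Igfbp7. Each window holds the 250 bases before the RefSeq start (GRCm38.p6), read 5′ to 3′ on the strand of the gene. RefSeq starts differ from the GENCODE M21 gene bounds given below. By those bounds, the Fbn1 and Fbln2 windows lie inside the gene, the Lgals3bp window lies partly inside, and the Igfbp7 window lies outside. Which start is used in these livers was not tested. Capitals mark matches on either strand to 5 motifs: TATAAA (named the TATA box), GGGCGG (named the GC box), CCAAT (named the CCAAT box), TGANTCA (the AP-1 site) and GAAA, any 2 bases and GAAA (interferon response element).
Lgals3bp promoter, chr11:118401960-118402209, minus strand: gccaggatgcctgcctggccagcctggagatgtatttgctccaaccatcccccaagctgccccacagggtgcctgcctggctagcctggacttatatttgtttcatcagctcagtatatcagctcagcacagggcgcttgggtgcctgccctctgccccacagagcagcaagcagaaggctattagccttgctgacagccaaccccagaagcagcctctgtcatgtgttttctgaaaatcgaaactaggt
Fbln2 promoter, chr6:91212514-91212763, plus strand: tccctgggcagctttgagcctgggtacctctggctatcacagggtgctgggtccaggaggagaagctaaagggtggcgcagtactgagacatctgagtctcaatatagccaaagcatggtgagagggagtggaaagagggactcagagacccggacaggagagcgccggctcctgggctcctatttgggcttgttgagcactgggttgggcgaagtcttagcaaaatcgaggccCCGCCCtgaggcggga
Fbn1 promoter, chr2:125506439-125506688, minus strand: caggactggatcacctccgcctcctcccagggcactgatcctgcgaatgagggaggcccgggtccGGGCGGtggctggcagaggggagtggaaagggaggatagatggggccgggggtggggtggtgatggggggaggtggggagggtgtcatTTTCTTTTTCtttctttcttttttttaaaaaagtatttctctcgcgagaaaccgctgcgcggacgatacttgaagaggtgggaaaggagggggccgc
Igfbp7 promoter, chr5:77408046-77408295, minus strand: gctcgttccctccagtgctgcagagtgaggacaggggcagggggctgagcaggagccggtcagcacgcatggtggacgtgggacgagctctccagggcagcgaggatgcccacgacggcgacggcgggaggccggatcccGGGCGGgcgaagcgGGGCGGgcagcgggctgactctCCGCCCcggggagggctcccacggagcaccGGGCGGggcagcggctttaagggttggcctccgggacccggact
The Lgals3bp window held no exact match to any of the 5 motifs. Near its end it reads gaaaatcgaaa, where GAAA recurs at a spacing other than the 2 bases searched for. Near matches of this kind were not counted in any window. The Fbln2 window held 1 GC box, the Fbn1 window 1 GC box and, in a pyrimidine-rich run, 1 match to the interferon response element, and the Igfbp7 window 4 GC boxes. Among all 32851 RefSeq windows of the same length, 32.7% held a GC box, 33.8% a CCAAT box, 12.4% a TATA box, 6.75% an AP-1 site and 2.98% an interferon response element. The G and C content was 55.6% for Lgals3bp, 58.8% for Fbln2, 59.2% for Fbn1 and 74.0% for Igfbp7, against a median of 52.4% over all windows. RefSeq windows matched 7 of the 10 genes, the exceptions being Dcn, Lum and Fn1. A match in these letters is a description of the sequence only.

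Library totals lay between 17815568 and 24814263 counts, and defining hepatocyte genes such as Alb and Ttr were counted in all of them. The design states males only, yet FLO replicate 3 held 3773 counts of Xist, the transcript of the inactive X chromosome, where the other 11 libraries held 0 to 4. Ddx3y, on the Y chromosome, had 4 counts there and 556 to 977 in the others. The called members are given with and without it. Mitochondrial genes made up 4.93% to 7.88% of all counts in the Fibrotic group and 7.30% to 10.2% in the FLO group, and the part of this difference in the results below was not tested.

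The question put to these genes was whether matrix genes other than collagens differ in the liver with ethionine. Of the 10 members, 1 was called higher (Lgals3bp) and 1 lower (Fbln2) in Fibrotic livers, while the other 8 were not called. Over all genes tested, 29.9% were called in either direction, 15.9% higher and 14% lower, so the members' count of 2 does not exceed the background. A call required an adjusted p of 0.01 or less and an absolute log2 fold change over 0.5 in the edgeR quasi-likelihood test. Of the members, 7 had a log2 fold change above 0 and 3 below, with a median of 0.16, beside 51.7% of all tested genes above 0 and a median of 0.025. The median absolute log2 fold change was 0.24 for the members and 0.38 over all tested genes. Groups did not overlap for 1 member, Lgals3bp, and for 30.4% of all tested genes. In whole-tissue RNA, a lower level can come from fewer cells of a type or from less RNA per cell, and these cannot be told apart.

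**Figure D1:**
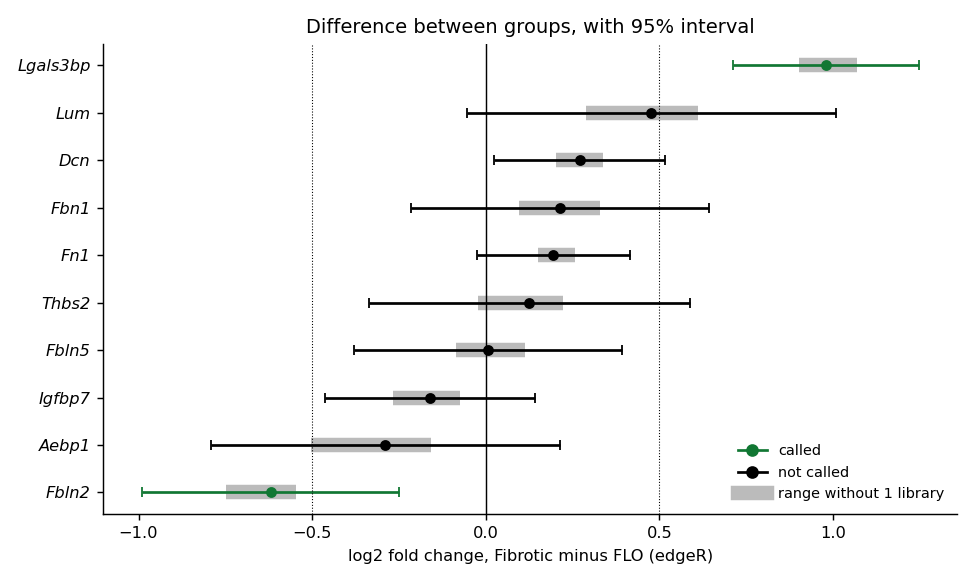
Log2 fold change of each gene, Fibrotic minus FLO, from the edgeR fit (x axis), with 95% intervals as thin bars and the range over 12 fits that each left out 1 library as grey bands. Dotted lines mark ±0.5, and the 2 called genes are in green, with Lgals3bp at 0.98 and Fbln2 at -0.62.

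Lgals3bp (ENSMUSG00000033880, GRCm38 chr11:118392751-118402092, minus strand) was the member that rose. Its level ran from 83.4 to 111 CPM (counts scaled by library size) in FLO libraries, with a median of 102. In Fibrotic libraries it ran from 136 to 256 CPM, with a median of 196. Every Fibrotic library lay above every FLO library, the lowest being Fibrotic replicate 2 at 136 CPM. The means were 199 ± 39.6 CPM (SD, n = 6) and 101 ± 10.1 CPM (SD, n = 6), a 1.97-fold difference (log2 fold change 0.98, SE 0.13, adjusted p = 1.21e-05). The two-sided exact permutation test of log2 CPM gave p = 0.00216, the smallest it can give for 6 against 6. In the 12 fits that left out 1 library, the log2 fold change stayed between 0.90 and 1.07 and was called each time, at 0.93 without FLO replicate 3.

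Interferon-stimulated genes and macrophage markers were read beside Lgals3bp. Of 20 interferon-stimulated genes tested, 6 were higher and 0 lower, and their summed level ran from 311 to 374 CPM in Fibrotic and from 261 to 310 CPM in FLO libraries. Usp18 (log2 fold change 2.28) and Isg15 (1.68), both induced by type I interferon, were the largest of these, and none of the 20 was at 0. Of 11 macrophage markers tested, 5 were higher and 0 lower, with a summed level of 236 to 518 CPM in Fibrotic and 173 to 253 CPM in FLO libraries. Among the 5 was Spp1, also a cholangiocyte marker, at 70.3 to 238 CPM in Fibrotic and 39.8 to 76.1 CPM in FLO libraries. Of 8 Kupffer cell markers, 4 were higher and 0 lower, at 214 to 382 CPM against 170.5 to 224.5 CPM. The defining genes Adgre1, Csf1r and Clec4f were counted in all libraries. Called were 30% of the interferon-stimulated genes, 45.5% of the macrophage markers and 50% of the Kupffer cell markers, beside 29.9% of all tested genes. The interferon share is near the 29.9% called in either direction. These shares hold higher genes only, and 15.9% of all tested genes were called higher. The part of these markers in the Lgals3bp result was not tested.

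No galectin was called higher beside this rise in the gene of a galectin-binding protein. Of 8 genes tested in a list of galectins and their lysosomal ligands, 0 were higher and 2 lower, Lgals4 (-1.21) and Lgals8 (-0.70). These are 25% of the list, beside 29.9% of all tested genes called in either direction and 14% called lower. Lgals3, which encodes galectin-3 itself, was at 12.7 ± 4.60 CPM in Fibrotic livers against 8.94 ± 4.62 CPM in FLO livers (SD, n = 6 each), a log2 fold change of 0.51 with an SE of 0.34 that was not called (adjusted p = 0.231).

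**Figure D2:**
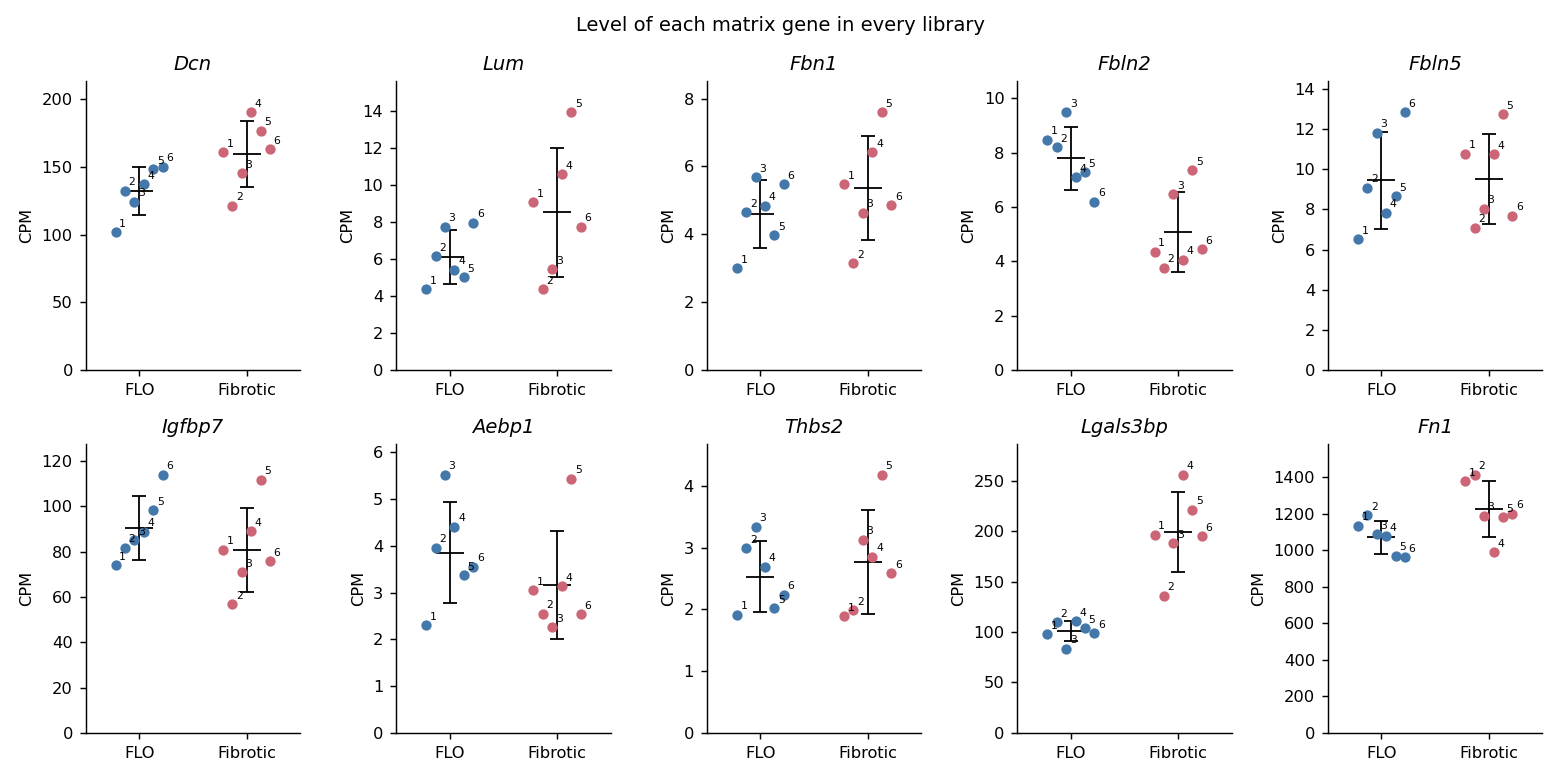
Level of each of the 10 genes in CPM (y axis, from 0, a scale for each panel) in the 6 FLO (blue) and 6 Fibrotic (red) libraries, with replicate numbers beside the points and the mean ± SD in black. Lgals3bp separates the groups at 83.4 to 111 against 136 to 256 CPM, and the other 9 genes overlap.

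Dcn and Lum lie next to each other on chromosome 10, at GRCm38 chr10:97479609-97518143 and chr10:97565128-97572703, with 46984 bases between them, both on the plus strand. Dcn (ENSMUSG00000019929) ran from 102 to 150 CPM in FLO libraries (median 135) and from 122 to 191 CPM in Fibrotic libraries (median 162). Lum (ENSMUSG00000036446) ran from 4.37 to 7.97 CPM in FLO (median 5.79) and from 4.38 to 13.9 CPM in Fibrotic libraries (median 8.41). For Dcn, 4 Fibrotic libraries lay above the highest FLO library, and for Lum 3 did. The log2 fold changes were 0.27 for Dcn (SE 0.12, adjusted p = 0.0618) and 0.48 for Lum (SE 0.25, adjusted p = 0.122), and neither was called. The 95% intervals ran from 0.024 to 0.52 for Dcn and from -0.055 to 1.01 for Lum, so a rise of up to 1.01 on the log2 scale for Lum is within the error. For Dcn, the adjusted p was 0.0161 without Fibrotic replicate 2, the lowest of 12 such fits. For Lum, the log2 fold change was 0.61 without Fibrotic replicate 2 and 0.29 without Fibrotic replicate 5, so it moved with single libraries.

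Lum was the most variable member in Fibrotic livers, with an SD of 41.0% of the mean against 24.0% in FLO livers. The higher spread came with Fibrotic replicate 5 at 13.9 CPM and replicate 2 at 4.38 CPM, the ends of the range.

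Of the elastic fibre genes, 1 of 3 was called. Fbln2 (ENSMUSG00000064080, GRCm38 chr6:91212455-91272540, plus strand) was lower in Fibrotic livers, at 5.08 ± 1.46 CPM against 7.79 ± 1.17 CPM (SD, n = 6 each). It ran from 6.20 to 9.50 CPM in FLO libraries (median 7.75) and from 3.77 to 7.35 CPM in Fibrotic libraries (median 4.41). Fibrotic replicates 3 and 5 reached into the FLO range at 6.47 and 7.35 CPM, and the other 4 lay below every FLO library. The log2 fold change was -0.62 (SE 0.17, adjusted p = 0.00751), and all 6 Fibrotic libraries lay below the FLO median (two-sided exact permutation test, p = 0.0152).

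The Fbln2 call rested on the full set of libraries. It was lost without Fibrotic replicate 1, 2, 4 or 6 and without FLO replicate 1, 2, 3, 4 or 5, with adjusted p from 0.0109 to 0.0195 in those fits, and kept without Fibrotic replicate 3 or 5 or FLO replicate 6. Without FLO replicate 3, the log2 fold change was -0.56 (adjusted p = 0.0195). The direction was the same in every one of the 12 fits, from -0.75 to -0.55. Of 8 portal fibroblast markers tested beside it, 0 were higher and 1 lower, and the summed list ran from 13.1 to 28.2 CPM in Fibrotic and from 18.5 to 37.4 CPM in FLO libraries. Its lower member was Entpd2 (-1.43), an ectonucleotidase of portal fibroblasts, while Gli1, Pi16, Clec3b and Slit2 had counts too low to test. Of 7 smooth muscle markers, 0 were higher and 2 lower, Acta2 (-1.15) and Mylk (-0.97), and the summed list did not overlap between groups, at 57.1 to 71.8 CPM in Fibrotic and 99.6 to 133 CPM in FLO libraries. Of 12 endothelial markers, 0 were higher and 2 lower, Emcn (-0.72) and Kdr (-0.58), at 227 to 288 CPM against 287 to 330 CPM. The called share was 12.5% of portal fibroblast, 28.6% of smooth muscle and 16.7% of endothelial markers, beside 29.9% of all tested genes. These shares hold lower genes only, and 14% of all tested genes were called lower. The part of these markers in the Fbln2 result was not tested.

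Fbln5 (ENSMUSG00000021186, GRCm38 chr12:101746565-101819055, minus strand) was at 9.51 ± 2.23 CPM in Fibrotic livers against 9.45 ± 2.42 CPM in FLO livers (SD, n = 6 each). It ran from 7.08 to 12.7 CPM in Fibrotic and from 6.51 to 12.8 CPM in FLO libraries, ranges that nearly coincide. Its log2 fold change of 0.0075 had a 95% interval from -0.38 to 0.39, and its sign turned under other normalizations and in 7 of 12 fits without 1 library. Fbn1 (ENSMUSG00000027204, GRCm38 chr2:125300594-125507993, minus strand) ran from 3.16 to 7.60 CPM in Fibrotic (median 5.17) and from 3.01 to 5.69 CPM in FLO libraries (median 4.75). Its log2 fold change of 0.21 (SE 0.20, adjusted p = 0.394) did not pass the test, and 2 Fibrotic libraries lay above the highest FLO library. The antisense-strand gene Gm9913 overlaps Fbn1, and reads of the pair cannot be told apart if the counting ignored strand.

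Aebp1, Thbs2 and Igfbp7 did not pass the test either. Aebp1 (ENSMUSG00000020473, GRCm38 chr11:5861947-5872088, plus strand) ran from 2.26 to 5.44 CPM in Fibrotic (median 2.80) and from 2.30 to 5.52 CPM in FLO libraries (median 3.76). Of the Fibrotic libraries, 5 lay below the FLO median and replicate 5 alone stood high, at 5.44 CPM. The log2 fold change of -0.29 (SE 0.24, adjusted p = 0.324) became -0.50 (adjusted p = 0.0545) without that library. Thbs2 (ENSMUSG00000023885, GRCm38 chr17:14665500-14694235, minus strand) was the lowest member, with 34 to 83 counts per library. It was at 2.77 ± 0.841 CPM in Fibrotic livers against 2.53 ± 0.569 CPM in FLO livers (SD, n = 6 each), with a log2 fold change of 0.13 and a 95% interval from -0.34 to 0.59. Igfbp7 (ENSMUSG00000036256, GRCm38 chr5:77349240-77408041, minus strand) ran from 56.8 to 112 CPM in Fibrotic (median 78.3) and from 73.9 to 114 CPM in FLO libraries (median 86.9). The difference of -0.16 on the log2 scale (SE 0.14, adjusted p = 0.367) came with 2 Fibrotic libraries below every FLO library. Polr2b overlaps Igfbp7 on the opposite strand, with the same limit if strand was ignored.

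Fn1 (ENSMUSG00000026193, GRCm38 chr1:71585520-71653200, minus strand) encodes fibronectin and was the most abundant member, also per kilobase. It ran from 964 to 1192 CPM in FLO (median 1082) and from 990 to 1414 CPM in Fibrotic libraries (median 1195), with 3 Fibrotic libraries above the highest FLO library. The log2 fold change of 0.19 (SE 0.10, adjusted p = 0.127) was not called, and its 95% interval ran from -0.025 to 0.41. With 16400 to 28421 counts per library, depth did not limit this value, and a difference above 0.41 lies outside the interval. The annotation lists 17 transcripts of Fn1, and counts per gene do not separate the plasma form from the cellular forms that carry extra domains. Apol7d overlaps Fn1 on the opposite strand, and their reads cannot be told apart if strand was ignored.

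The order of levels was read per kilobase of merged exons (GENCODE M21), which removes the effect of length. In FLO livers Fn1 came highest at 91.7 ± 7.70 CPM per kilobase (SD, n = 6), then Igfbp7 at 74.7 ± 11.7, Lgals3bp at 35.4 ± 3.53 and Dcn at 22.7 ± 3.05. The ranges of Fn1 and Igfbp7 overlapped, while Igfbp7, Lgals3bp and Dcn were separate from each other. Well below these came Lum at 2.50, Fbln5 at 1.37, Fbln2 at 1.22 and Aebp1 at 0.949 CPM per kilobase, each overlapping the next. Fbn1 at 0.380 and Thbs2 at 0.361 CPM per kilobase came last, below the range of Aebp1, and did not differ from each other beyond their spread. In Fibrotic livers the order of means was the same but for Lgals3bp, which stood at 69.8 ± 13.9 CPM per kilobase (SD, n = 6) beside Igfbp7 at 66.9 ± 15.4, with overlapping ranges. Fbln2 at 0.797 and Aebp1 at 0.779 were close there. Fbln2 lay above Aebp1 in 2 of 6 Fibrotic libraries and in 6 of 6 FLO libraries. The ranges of Aebp1 and Fbn1 also overlapped in Fibrotic livers.

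Relations among the members were examined within each group, since Lgals3bp and Fbln2 differ between groups. All 45 pairs were correlated in each group over 6 libraries, giving 90 relations. In Fibrotic livers 36 of the 45 pairs had a positive Pearson r, with a median of 0.594. In FLO livers 28 of 45 did, with a median of 0.198. No relation had an adjusted exact permutation p of 0.05 or less, by r or by rho, while 19 pairs in Fibrotic and 7 in FLO livers had an unadjusted exact permutation p of r at or under 0.05. The smallest exact permutation p that 6 libraries allow is 0.00278, and over 90 relations no pair can pass the adjustment by itself. That none passed therefore says little about whether relations exist. The difference between the groups' medians was not tested.

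**Figure D3:**
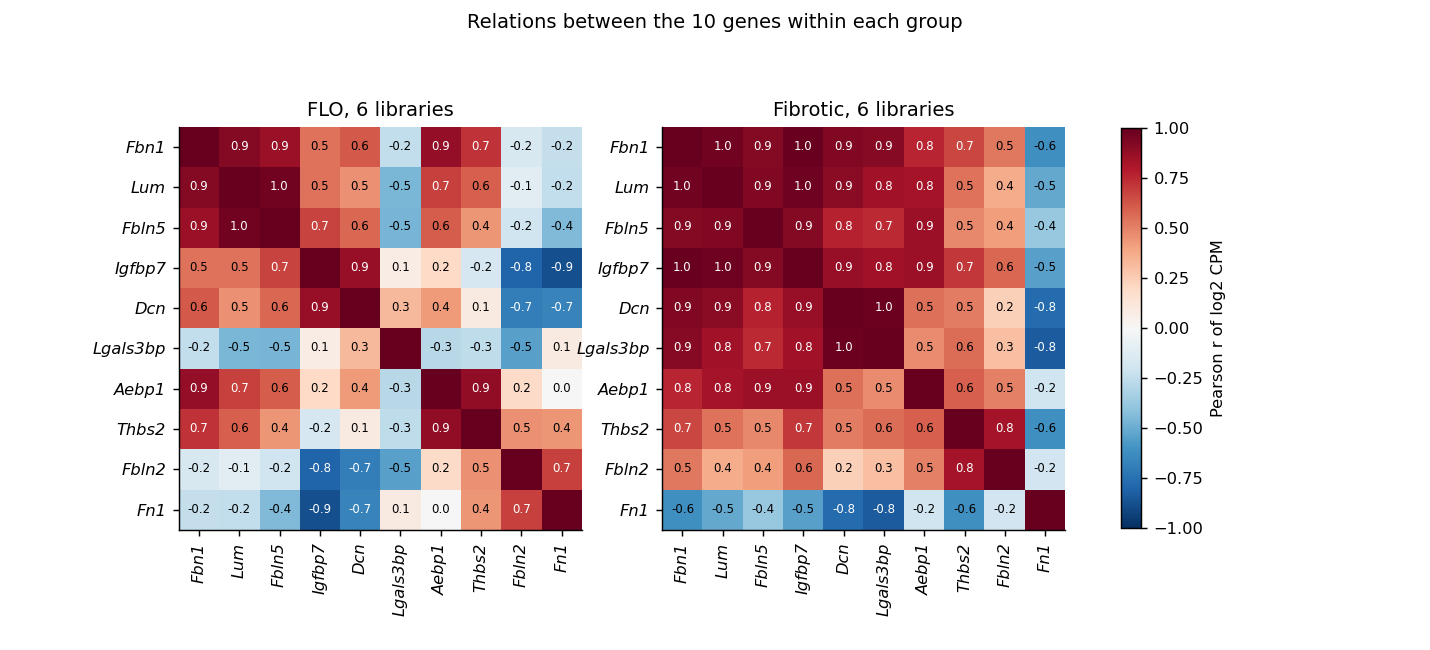
Pearson r of log2 CPM for each pair of the 10 genes (color and number in each cell) within the 6 FLO libraries (left) and the 6 Fibrotic libraries (right). Positive values fill most of the Fibrotic panel, while the row of Fn1 is negative throughout that panel, from -0.833 to -0.188.

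Lum, Fbn1 and Igfbp7 ranked the Fibrotic libraries in the same order, though no pair of them passed the adjustment. Within Fibrotic livers, r was 0.986 for Fbn1 and Igfbp7 (n = 6, exact permutation p = 0.00278, adjusted over 90 relations 0.0833), with a rho of 1 and the same p. For Lum and Igfbp7, r was 0.971 and for Lum and Fbn1 0.963, each with a rho of 1 and the same exact permutation p of 0.00278 (adjusted 0.0833), the smallest that 6 libraries allow. Without the 2 libraries farthest from the median of the first gene, these values of r were 0.990, 0.955 and 0.905. In FLO livers, Lum and Fbn1 had an r of 0.916 (n = 6, exact permutation p = 0.0111, adjusted 0.0909), and ranks gave a rho of 0.886 (exact permutation p = 0.0333, adjusted 0.158). Lum and Fbln5 had an r of 0.967 there (n = 6, exact permutation p = 0.0111, adjusted 0.0909) and 0.849 without the 2 farthest libraries. The rho of Lum and Fbln5 was 0.943 (exact permutation p = 0.0167, adjusted 0.136). Fbn1 and Igfbp7 had an r of 0.544 in FLO livers (n = 6, exact permutation p = 0.247, adjusted 0.450), and ranks gave a rho of 0.429 (exact permutation p = 0.419, adjusted 0.609), and the difference from Fibrotic livers was not tested.

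The genomic neighbours Dcn and Lum had an r of 0.905 in Fibrotic livers (n = 6, exact permutation p = 0.0167, adjusted 0.115), and ranks gave a rho of 0.886 (exact permutation p = 0.0333, adjusted 0.158). In FLO livers their r was 0.459 (n = 6, exact permutation p = 0.375, adjusted 0.530), with a rho of 0.429 (exact permutation p = 0.419, adjusted 0.609). With the 2 most distant libraries by Dcn level left out, r was 0.961 in Fibrotic livers but -0.952 in FLO livers, so in FLO livers the relation rests on those libraries. Dcn and Igfbp7 had high values in both groups, with an r of 0.870 in Fibrotic (n = 6, exact permutation p = 0.0389, adjusted 0.140) and 0.869 in FLO livers (n = 6, exact permutation p = 0.0111, adjusted 0.0909). The rho of Dcn and Igfbp7 was 0.886 (exact permutation p = 0.0333, adjusted 0.158) and 0.943 (exact permutation p = 0.0167, adjusted 0.136) in the same order. Without the 2 farthest libraries, r was 0.873 and 0.844.

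Lgals3bp and Dcn had in Fibrotic livers an r of 0.979 (n = 6, exact permutation p = 0.00556, adjusted 0.0909) and 0.899 without the 2 farthest libraries. Their rho was 0.943 (exact permutation p = 0.0167, adjusted 0.136). In FLO livers the r of Lgals3bp with the other 9 members had a median of -0.256 and was above 0 for 3 of them, against 8 of 9 in Fibrotic livers. In Fibrotic livers Fn1 ran the other way. Its r was below 0 with all 9 other members in Fibrotic livers, from -0.833 with Lgals3bp (n = 6, exact permutation p = 0.0333, adjusted 0.140) to -0.188, and rho with Lgals3bp was -0.771 (exact permutation p = 0.103, adjusted 0.289). The relation of Fn1 and Lgals3bp was -0.221 without the 2 farthest libraries, so it leans on them. In FLO livers the r of Fn1 was above 0 with 4 of the 9 other members, with a median of -0.241. Its lowest value there was with Igfbp7, an r of -0.879 (n = 6, exact permutation p = 0.0306, adjusted 0.140). The rho of that pair was -0.943 (exact permutation p = 0.0167, adjusted 0.136), and r was -0.965 without the 2 farthest libraries.

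Single mice stood at the ends of the range for most members. Fibrotic replicate 5 was the highest of its group for 7 of the 10 genes, and Fibrotic replicate 2 was the lowest for 7. In the FLO group, replicate 1 was the lowest for 7 genes, and replicates 3 and 6 were each the highest for 4. Fn1 departed from this order, being highest in Fibrotic replicate 2 at 1414 CPM. Without Fibrotic replicate 5 the median r of the 45 Fibrotic pairs was 0.532, without replicate 2 it was 0.551, and without the other Fibrotic libraries it ran from 0.603 to 0.777. Without FLO replicate 1 the FLO median was 0.102, and without FLO replicate 3 it was 0.391.

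**Figure D4:**
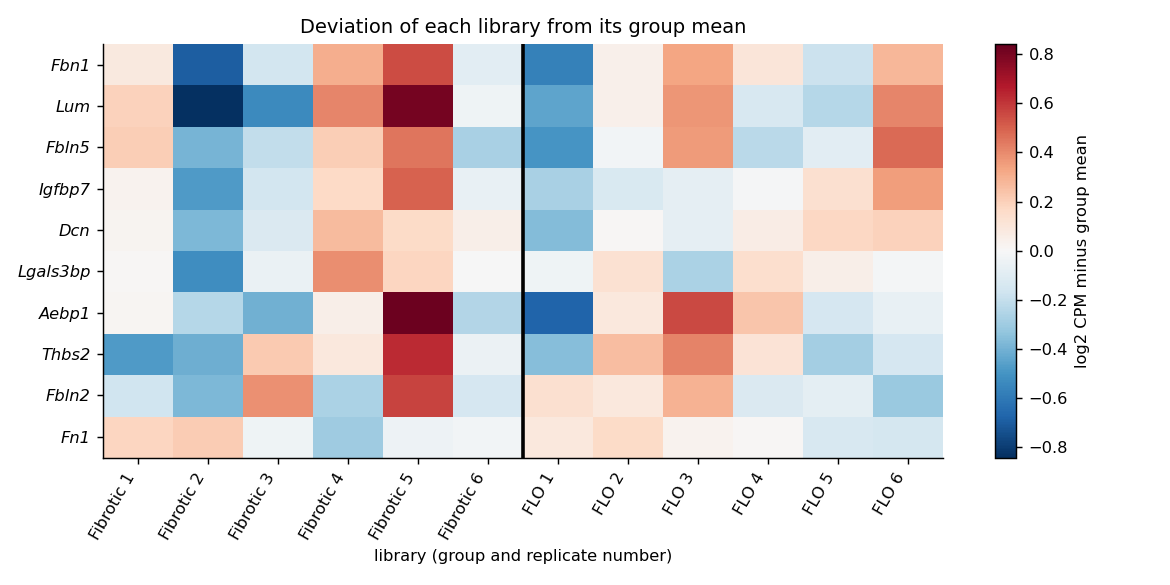
Log2 CPM of each gene minus the mean of its group (color scale) in the 6 Fibrotic and 6 FLO libraries (columns, divided by the black line). Most genes are above their group mean in Fibrotic replicate 5 and below it in Fibrotic replicate 2 and FLO replicate 1. Fn1 goes the other way there, at -0.043, 0.216 and 0.087 in the same order.

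The tested genes whose pattern was most like each member were ranked by Pearson r of group-centred log2 CPM over 12 libraries, among the 11195 genes whose log2 CPM averaged 1 or more. For Fbn1 they were the fibrillar collagen genes Col3a1 (0.971) and Col5a2 (0.958), for Fbln5 Col6a1 (0.963) and Col1a1 (0.935), and for Aebp1 Col6a2 (0.920) and Elmo1 (0.903). Collagen genes thus led the rankings of these 3 matrix genes. For Lum they were Cbx6 (0.971) and Emp1 (0.970), for Igfbp7 Lhfp (0.955) and Ralgds (0.944), and for Dcn Slc37a2 (0.962) and Gpx3 (0.958). Thbs2 was closest to Tgfbr3 (0.876), the gene of betaglycan, and Angptl2 (0.854). Fbln2 was closest to Odc1 (0.868). Lgals3bp was closest to Ano6 (0.951) and Hpse (0.928), and Fn1 to Tmem18 (0.937) and Btbd1 (0.936). The libraries share their scaling, and the highest of so many values is high in part by selection.

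The members also moved with cell type markers from mouse to mouse. The mean log2 CPM of 16 stellate cell markers had a group-centred r of 0.932 with Fbn1, 0.927 with Lum, 0.857 with Igfbp7 and 0.854 with Dcn over 12 libraries. For Fn1 and Fbln2 the same r was -0.522 and 0.228. With hepatocyte markers, r was 0.675 for Fn1 and between -0.853 and -0.382 for Dcn, Lum, Fbn1, Fbln5, Igfbp7, Aebp1, Thbs2 and Lgals3bp. With macrophage markers, r was 0.931 for Dcn, 0.829 for Igfbp7, 0.813 for Lgals3bp, 0.806 for Lum and 0.777 for Fbn1. With interferon-stimulated genes, it was 0.878 for Dcn and 0.723 for Lgals3bp. Other lists also gave high values. They were -0.928 for Fn1 with endothelial markers, 0.868 for Aebp1 with portal fibroblast markers, and 0.834 for Fbln5 and 0.831 for Lum with cholangiocyte markers. The members thus did not follow 1 list alone. These values are descriptions, and within a library a larger share of one set of transcripts leaves a smaller share for the rest. Between groups, 2 of the 16 stellate markers were higher and 0 lower, among them Lrat (0.72), the enzyme of retinoid storage, and the summed list ran from 373 to 494 CPM in Fibrotic and from 365 to 437 CPM in FLO libraries. Of 9 hepatocyte markers, 1 was higher (Cps1) and 2 lower (Apoa1 and Serpina1a). The called share was 12.5% of stellate and 33.3% of hepatocyte markers. Over all tested genes it was 29.9%, with 15.9% higher and 14% lower. The part of cell content in the members' levels was not tested.

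Other non-collagen matrix genes were read from 7 lists holding 137 genes of the table, of which 107 were tested. Of these, 15 were higher and 9 lower, or 22.4%, beside 29.9% of all tested genes, with a median log2 fold change of 0.059. The count of higher genes moved with the libraries and with the method. It was lowest with 9 higher and 10 lower without FLO replicate 2, and 9 higher and 9 lower without FLO replicate 3. Other fits without 1 library gave 10 to 15 higher. Alternatives that kept every library gave 11 to 19 higher. Of the genes not tested, 5 had no counts in any library, among them the cartilage proteoglycan gene Acan. Among proteoglycans, 2 of 13 tested were higher and 0 lower, or 15.4%, beside 15.9% of all tested genes called higher. Podn rose from 4.02 ± 1.21 to 9.43 ± 2.12 CPM (SD, n = 6 each; log2 fold change 1.23, adjusted p = 0.000171) and Omd had a log2 fold change of 1.16, both leucine-rich proteoglycans like Dcn and Lum. Bgn, the closest relative of Dcn, was at 107 ± 29.3 CPM in Fibrotic livers against 106 ± 11.4 CPM in FLO livers (SD, n = 6 each).

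Elastic fibre and microfibril genes beside the members held 1 higher and 2 lower of 20, or 15%, beside 29.9% of all tested genes. Emilin2 was higher (0.81), while Ltbp4 (-0.67), which binds latent TGF-β and fibulin-5, and the endothelial gene Mmrn2 (-0.51) were lower. Among matricellular genes, 4 of 22 were higher and 1 lower, or 22.7%. Smoc2, a calcium-binding matricellular gene, rose from 5.92 ± 0.926 to 30.0 ± 6.53 CPM (SD, n = 6 each; log2 fold change 2.34, adjusted p = 2.39e-08), with no overlap between groups. Spon1 (1.29) and Spp1 (1.01) were also higher and Smoc1 (-0.54) lower. Spp1, osteopontin, is made by macrophages and cholangiocytes too.

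Basement membrane genes held 5 higher and 1 lower of 22, or 27.3%, beside 29.9% of all tested genes. Npnt, encoding nephronectin, showed the largest rise of any matrix gene examined here, from 2.15 ± 1.09 to 19.9 ± 4.56 CPM (SD, n = 6 each; log2 fold change 3.19, adjusted p = 4.53e-07). Hmcn2 (1.15) was also higher, and Ntn4 (-0.51) was lower. Among adhesive and plasma glycoproteins, 2 of 15 were higher and 1 lower, or 20%. Vitronectin (Vtn), secreted by hepatocytes into plasma as fibronectin is, fell from 1908 ± 129 to 935 ± 124 CPM (SD, n = 6 each; log2 fold change -1.03, adjusted p = 1.52e-06). The fibrinogen chain gene Fgb rose (0.82), as did Mfge8 (0.81), while the other fibrinogen chain genes were not called, with Fgg at -0.40 (adjusted p = 0.0101) and Fga at -0.11 (adjusted p = 0.557). Among the relatives of Igfbp7, 1 of 7 was higher, Igfbp1 (1.34), and 2 were lower, Igfbp5 (-1.49) and Igfbp4 (-0.89), while Igfbp7 itself stood at -0.16. The called share of these 7 genes was 42.9%.

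Receptors for matrix proteins moved in one direction where they were called. Of 22 tested, 7 were higher and 0 lower, or 31.8%, with a median log2 fold change of 0.43. The share is near the 29.9% of all tested genes called in either direction, while 15.9% were called higher. Itga6, a laminin-binding integrin subunit, rose from 5.17 ± 2.29 to 32.5 ± 6.78 CPM (SD, n = 6 each; log2 fold change 2.64, adjusted p = 7.56e-07). Sdc1 (1.39), a heparan sulfate proteoglycan of the hepatocyte surface, and Cd44 (1.01), the hyaluronan receptor, came next. Of the subunits of the classical fibronectin receptor, Itga5 was higher (log2 fold change 0.83, adjusted p = 4.80e-06), at 30.0 to 43.6 CPM against 19.0 to 23.3 CPM, while Itgb1 was at 157 ± 14.9 and 158 ± 2.41 CPM (SD, n = 6 each) and was not called. Their ligand gene Fn1 had a log2 fold change of 0.19 beside these. Of 7 cholangiocyte markers, 5 were higher and 0 lower, or 71.4%, beside 29.9% of all tested genes called in either direction and 15.9% called higher. Their summed level ran from 102 to 311 CPM in Fibrotic and from 49.8 to 92.0 CPM in FLO libraries. Spp1, which is also on the macrophage list, held a large part of that sum. Alone it ran from 70.3 to 238 CPM in Fibrotic and from 39.8 to 76.1 CPM in FLO libraries, ranges that overlap. Their part in the rise of Npnt and Itga6 was not tested.

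**Figure D5:**
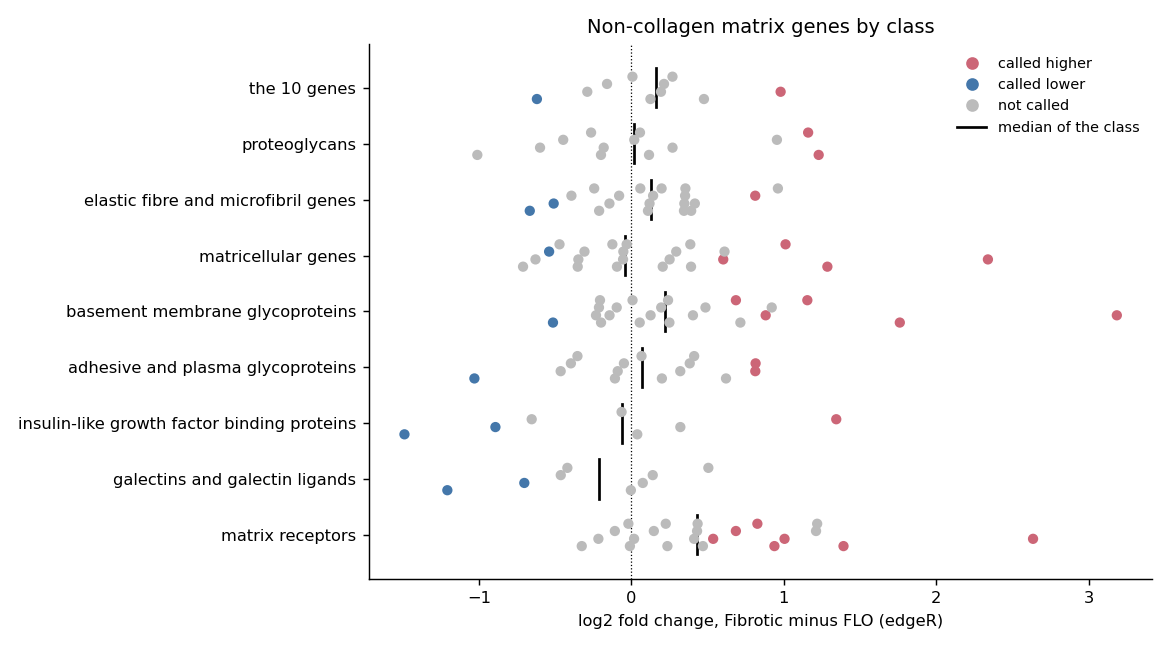
Log2 fold change, Fibrotic minus FLO (x axis), of every tested gene in the 10-gene set, 7 further classes of matrix gene and the matrix receptors (rows), with called genes in red (higher) or blue (lower), others in grey and a black bar at the median of each class. Npnt at 3.19 and Itga6 at 2.64 lie farthest to the right, while medians lie between -0.21 and 0.43.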

How the data were processed

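The deposited data were unnormalized counts, given by the authors for each Ensembl gene in 12 libraries. The submitters' processing notes name bcl2fastq, STAR 2.7.3a and mm10, and the methods name PISCES. The mouse annotation and the use of strand are not given in the sources used here. Groups and replicate numbers were read from the titles. Whether the mice shared litters or batches is not stated. Symbols came from GENCODE M21 (GRCm38) for 51745 of 56205 identifiers. The others held 0.0587% of counts.

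The counts were tested in R 4.3.3 with edgeR 4.0.16 (quasi-likelihood, robust, TMM, filterByExpr, Benjamini-Hochberg over all tested genes). CPM values use TMM-scaled library sizes, and log2 CPM a prior count of 2. The SE is the absolute log2 fold change over the square root of F. Single values were compared by exact permutation over 924 assignments. No library was a duplicate of another in its group (chi-square at least 10.7 per degree of freedom). Intervals and SDs include counting error. Tests were checked on simulated counts. Alternatives were RLE, upper quartile, TMM without the 50 largest genes, other filters, DESeq2 1.42.0, limma-voom (limma 3.58.1), a fit that is not robust, a replicate block, an adjusted p of 0.05 and leaving out each library.

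The members and lists were chosen with earlier results of these data known. Named genes are the members, up to 3 highest and 3 lowest called genes of each matrix list, 2 genes most like each member, and Xist and Ddx3y. Some genes that this rule selects are not reported here. Bgn, Lgals3, Itga5, Itgb1, Acan, Fga, Fgg and the marker genes named were added after their values were seen.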

Additional observations from a re-analysis of the deposited data

Results flagged for a closer look

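In groups of 6, the distance of the highest or lowest library from its nearest neighbour was set against the whole range, for the 10 genes and for Xist and Ddx3y in both groups. Of these 24 sets, 3 had a ratio above 0.625, where chance gives about 1 in 20. Only Aebp1 was flagged among the 10 genes, which is near that rate. The other flags were the sex genes of FLO replicate 3, already known to differ. Aebp1 in Fibrotic replicate 5 had a ratio of 0.631, at 5.44 CPM against 2.26 to 3.14 CPM in the other 5 libraries. Xist in FLO replicate 3 had a ratio of 1, at 161 CPM against 0 in the other 5. Ddx3y in the same library had a ratio of 0.946, at 0.171 CPM against 40.2 to 53.4 CPM.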

How the results depend on the processing

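The 2 calls among the members, Lgals3bp and Fbln2, held under all 10 alternatives that kept every library, with log2 fold changes from 0.95 to 0.98 and from -0.66 to -0.62. Leaving out 1 library at a time gave 1 to 2 called members, and the call lost was that of Fbln2 in 9 of 12 fits. The sign of Fbln5 turned with RLE normalization (-0.015), upper quartile normalization (-0.022) and DESeq2 (-0.013), and ran from -0.087 to 0.11 in the fits without 1 library. Thbs2 ran from -0.022 to 0.22, and turned without Fibrotic replicate 5. Counts of all genes called (3566 to 4678), of wider matrix genes in both directions together (17 to 29) and of receptors (5 to 9) stayed within 1.5 times the values reported. The higher wider matrix genes alone, 15 in the reported fit, numbered 9 without FLO replicate 2 or FLO replicate 3. They numbered 10 to 15 in the other fits without 1 library and 11 to 19 under the alternatives that kept every library. Relations with an adjusted p of 0.05 or less numbered 0 under RLE normalization and a prior count of 0.5. This says little about stability, since with 6 libraries no pair can pass the adjustment by itself. Such relations also numbered 0 without 1 library, which says nothing about stability, since the exact test of 5 libraries could hardly pass the adjustment.

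Replicate numbers did not pair the samples: deviations of same-numbered libraries correlated between -0.162 and 0.104, and 0 of 6 Fibrotic libraries correlated best with its own number. With the replicate block, 3780 genes, 2 members, 20 wider matrix genes and 6 receptors were called. Thbs2, Aebp1 and Fbn1 had as few as 34, 42 and 55 counts in a library, and the shares of counting error and of spread between mice in their intervals were not tested.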
